A study of Mus musculus with 48 samples.

Results

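Tmc3 (transmembrane channel-like 3, ENSMUSG00000038540) is 1 of 48795 genes in a table of RNA sequencing counts from mouse cerebral cortex. It was chosen by its measured counts, which were higher in mice with the Q140 allele and lower in mice labelled Msh3-/-. Those differences are therefore given as a description, with standard errors and without a test. Tests are kept for sex, whether the Q140 difference varies with Msh3 genotype or sex, related genes, and genes beside Tmc3 on the chromosome. The choice did not rest on these comparisons as such. Tmc3 and the gene lists were still chosen with earlier results of these data known, so the tests are not fully independent of the choice.

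The study measured cortex from 48 mice aged 12 months on a C57BL/6 background, 8 mice in each of 6 genotypes, 4 females and 4 males per genotype. The groups were wild type, Msh3+/-, Msh3-/-, Het (Q140) KI, Het (Q140) KI X Msh3+/- and Het (Q140) KI X Msh3 -/-, and the last 3 are called Q140, Q140 Msh3+/- and Q140 Msh3-/- here. Het (Q140) KI is a knock-in, carried on 1 of the Htt alleles in all cells, that gives the mouse Huntington disease gene an expanded CAG repeat. The repeat lengths of single mice and the nature of the Msh3 mutation are not given in the sources used here. Each library is labelled as 1 mouse, and shared litters are not stated, so the errors measure the spread between these mice.

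TMC proteins are membrane proteins with many membrane-spanning segments. Tmc1 and Tmc2 form the pore of the mechanically gated channel of inner ear hair cells, where they work with partners such as Tmie, Cib2, Lhfpl5 and Pcdh15. Msh3 is a mismatch repair protein that recognises small DNA loops and drives the lengthening of CAG repeats in somatic cells, which is the known link between Msh3 genotype and Huntington disease models.

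Tmc3 lies on the plus strand of chromosome 7 (GRCm38, 83584927 to 83625614) and is annotated as protein coding. The 250 bases before its RefSeq start site, read from RefSeq promoters of build GRCm38.p6 at chr7:83584681-83584930, plus strand, are shown because the differences below are in the amount of the transcript annotated from there. The capitals mark the motif CCAAT, the only match among the motifs searched.

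Tmc3 promoter: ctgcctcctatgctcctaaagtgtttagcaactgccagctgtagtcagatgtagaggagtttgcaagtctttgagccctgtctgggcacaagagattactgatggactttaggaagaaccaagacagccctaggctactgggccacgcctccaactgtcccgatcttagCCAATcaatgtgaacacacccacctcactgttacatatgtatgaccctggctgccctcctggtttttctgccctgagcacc

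The CCAAT match starts at base 170 of this window, and 33.8% of the 32851 mouse promoter windows of the same length hold it on either strand. The searched letters TATAAA (12.4% of windows), GGGCGG (32.7%), CACGTG (6.02%), TGACGTCA (1.55%) and TGACG (17.8%), on both strands, had no match. TGACG is contained in TGACGTCA, so these last searches overlap. The window held 51.2% G and C, against a median of 52.4% over all windows. A motif match is a description of letters and not a measured binding site.

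Library totals ran from 37.7 to 68.3 M counts (M, mega), with a median of 48.6 M. Msh3 itself went against a simple reading of its labels. It had 22.4 ± 1.16 CPM (counts per mega counts of the TMM-scaled library total; mean ± SD, n = 8) in wild type, 60.1 ± 3.06 in Msh3+/- and 99.2 ± 8.15 in Msh3-/-. The same order held with Q140, at 21.8 ± 0.979, 57.9 ± 3.01 and 95.3 ± 8.03 CPM. The groups separate, but the direction is the opposite of a lost transcript, and the gene count does not measure a working transcript; the text below therefore writes of mice labelled Msh3+/- or Msh3-/-. Genes of cortical glutamatergic neurons were abundant in all libraries, with 5 of 5 defining genes found and a summed level between 1774 and 2045 CPM. Choroid plexus genes stood at 91.8 times their median level in Msh3+/- male 2. Pituitary genes stood at 18.9 times in Msh3+/- male 1 and at 60.9 times in wild-type male 2. These 3 libraries had 0.371, 0.408 and 0.669 CPM of Tmc3, and the Q140 difference averaged over Msh3 genotypes was 1.34 on the log2 scale both with and without them. Without them the Msh3-/- difference averaged over Q140 status was -0.73 ± 0.153 (SE), against -0.77 with them. The averaged Msh3+/- difference was -0.11 ± 0.147, against -0.18.

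Tmc3 was a scarce transcript in cortex. Its deposited FPKM (fragments per kilobase of gene length and per mega fragments), which allows levels of different genes to be compared per length, had a median of 0.0729 over the 48 libraries and ranged from 0.0138 to 0.179. Only 4.32% of the 19547 genes tested had a lower median FPKM. The libraries held 6 to 90 Tmc3 counts each and 1829 in all, so counting error is a visible part of every value below. As an example of that error, the 6 counts of Msh3-/- female 1 have an exact 95% Poisson interval of 2.2 to 13.1 counts, and the 90 counts of Q140 female 3 one of 72.4 to 111. These intervals cover counting error only.

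The wild-type cortices gave 12 to 50 Tmc3 counts, with a lowest value of 0.280, a median of 0.489 and a highest of 0.739 CPM. The Q140 cortices gave 56 to 90 counts, with 1.06, 1.35 and 1.60 CPM as the lowest, median and highest. All 8 Q140 mice were above all 8 wild-type mice. The means were 1.35 ± 0.190 and 0.512 ± 0.165 CPM (SD, n = 8 each).

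On the Msh3+/- background, Msh3+/- cortices ranged from 0.212 to 0.818 CPM with a median of 0.397, and Q140 Msh3+/- cortices ranged from 1.06 to 1.35 CPM with a median of 1.20. These groups did not overlap either. Their means were 0.467 ± 0.195 and 1.20 ± 0.0956 CPM (SD, n = 8 each).

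On the Msh3-/- background both groups were lower and they touched. Msh3-/- cortices ranged from 0.124 to 0.566 CPM with a median of 0.295. Q140 Msh3-/- cortices ranged from 0.428 to 1.08 CPM with a median of 0.780. Male 2 of the Q140 Msh3-/- group, at 0.428 CPM, fell below Msh3-/- female 4, at 0.566 CPM, and no other pair of mice crossed between the groups. The means were 0.323 ± 0.132 and 0.771 ± 0.216 CPM (SD, n = 8 each).

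**Figure D1:**
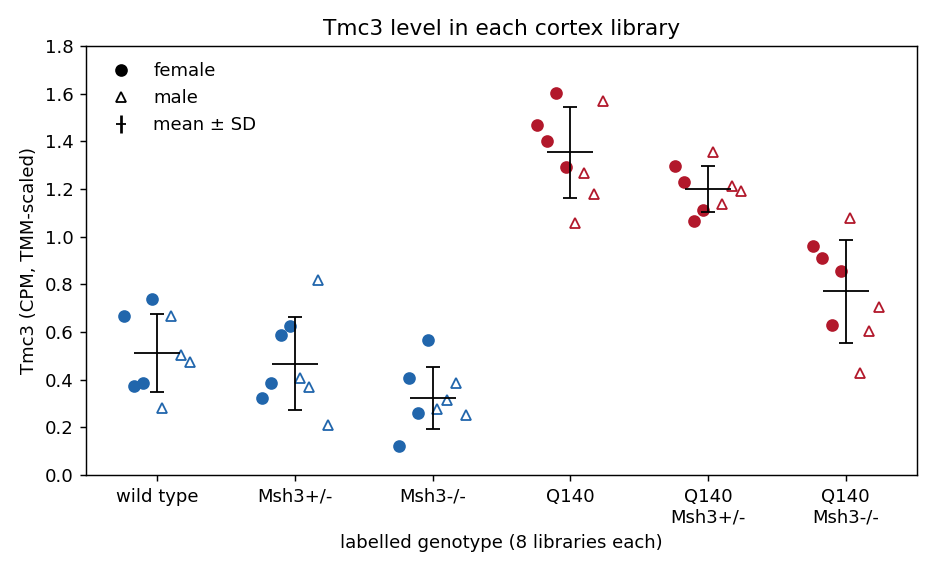
Tmc3 level in CPM (vertical axis) in each of the 48 cortex libraries, by labelled genotype (horizontal axis). Filled circles are females, open triangles males, and the bar with whiskers is the mean ± SD of 8 libraries; all Q140 and Q140 Msh3+/- libraries sit above 1 CPM, all libraries without Q140 below 0.818 CPM or at it, and Q140 Msh3-/- libraries spread between 0.428 and 1.08 CPM.

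Expressed as a fold change from the model fitted to all genes, Tmc3 was 2.56-fold higher with Q140 on Msh3+/+ (log2 fold change 1.36 ± 0.181 SE). It was 2.57-fold higher on Msh3+/- (1.36 ± 0.195) and 2.46-fold higher on Msh3-/- (1.30 ± 0.232). Averaged over the 3 Msh3 genotypes, the log2 difference was 1.34 ± 0.118, a fold of 2.53. At a Benjamini-Hochberg adjusted p under 0.05 in edgeR's quasi-likelihood test, this averaged comparison called 288 of 19547 genes (1.47%), 139 higher and 149 lower, and its median log2 difference over all genes was -0.00084. Tmc3 was chosen with this comparison in view, so its place among those genes carries no weight of its own.

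The 24 mice with Q140 had 1.11 ± 0.303 CPM of Tmc3 and the 24 without had 0.434 ± 0.179 (mean ± SD). Across all Msh3 genotypes the ranges overlapped: 4 mice with Q140 were below the highest mouse without it (Msh3+/- male 3, 0.818 CPM), and 9 mice without Q140 were above the lowest with it. The lowest of the Q140 mice came from the Q140 Msh3-/- group.

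Msh3-/- went with less Tmc3 at both levels of Q140. Among mice without Q140, the log2 difference between Msh3-/- and wild type was -0.74 ± 0.247 (SE). Among mice with Q140, it was -0.80 ± 0.159. The averaged difference was -0.77 ± 0.147, which is a level 0.588 times that of Msh3+/+. The averaged comparison called 42 of 19547 genes (0.215%) in edgeR at an adjusted p under 0.05, 18 higher and 24 lower, and this comparison too was used in choosing Tmc3.

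Single mice overlapped more in this direction than for Q140. Without Q140, 5 of 8 wild-type mice were below the highest Msh3-/- mouse. With Q140, 1 mouse on each side crossed: Q140 male 1 had 1.06 CPM and Q140 Msh3-/- male 1 had 1.08 CPM. The Msh3-/- difference with Q140 was -0.84 ± 0.170 on the log2 scale when male 1 and male 2 of the Q140 Msh3-/- group, its highest and lowest mice, were left out after their values had been seen.

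One copy of the Msh3 mutation went with a small difference. Msh3+/- mice differed from Msh3+/+ by -0.18 ± 0.224 (log2, SE) without Q140 and by -0.17 ± 0.143 with it, and both groups overlapped their Msh3+/+ counterparts broadly. Q140 Msh3-/- differed from Q140 Msh3+/- by -0.62 ± 0.164, and Msh3-/- from Msh3+/- by -0.56 ± 0.254. Under a purely additive dose effect on the log2 scale Msh3+/- would lie midway between Msh3+/+ and Msh3-/-. Averaged over Q140 status it lay 0.21 ± 0.122 above that midpoint. Leaving out 1 library moved this value between 0.13 and 0.25. The lower end came without Msh3+/- male 3, the highest mouse of its group, and the upper end without Msh3+/- male 4, the lowest. The midpoint contains the low Msh3-/- level for which Tmc3 was chosen, and the comparison was added after the values had been seen, so it is given without a test.

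Ordered by mean CPM, the groups ran Msh3-/-, Msh3+/-, wild type, Q140 Msh3-/-, Q140 Msh3+/-, Q140. Neighbours in this order differed by 0.735, 0.231, 1.20, 1.98 and 0.814 times the larger of their SDs. The steps from Msh3-/- to Msh3+/-, from Msh3+/- to wild type and from Q140 Msh3+/- to Q140 were thus each smaller than the SD of single mice in the wider group. These ratios describe the overlap of mice and are no test of the means. Q140 Msh3-/- remained above wild type in the mean (log2 difference 0.56 ± 0.198, a fold of 1.47), but 4 of its 8 mice lay within the range of wild type.

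The 2 genotype differences combined without a detectable interaction on the log2 scale. Tmc3 was chosen with both differences in these same mice in view. The interaction tests are therefore not independent evidence that the differences add. The Q140 difference on Msh3-/- minus that on Msh3+/+ was -0.06 ± 0.294 (SE), with a 95% interval from -0.63 to 0.52 (edgeR, unadjusted p = 0.853, adjusted p = 1). For Msh3+/- the same interaction was 0.01 ± 0.266, with an interval from -0.51 to 0.53 (edgeR, unadjusted p = 0.971, adjusted p = 0.999). These intervals are wide: they include a Q140 effect on Msh3-/- that is smaller by 0.63 log2 units as well as one larger by 0.52. No gene was called for either interaction in edgeR (0% of 19547 each), DESeq2 or limma-voom, with 626 genes for Msh3-/- and 646 for Msh3+/- at an unadjusted p under 0.05 in edgeR.

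On the linear scale the same values read differently. The Q140 difference was 0.843 ± 0.0890 CPM (difference of means ± SE) on Msh3+/+, 0.733 ± 0.0769 on Msh3+/- and 0.448 ± 0.0895 on Msh3-/-. The Msh3-/- difference from Msh3+/+ was 0.189 ± 0.0745 CPM without Q140 and 0.583 ± 0.102 CPM with it, lower in both cases. Near-equal ratios applied to unequal starting levels give unequal differences, and no test was made on this scale.

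**Figure D2:**
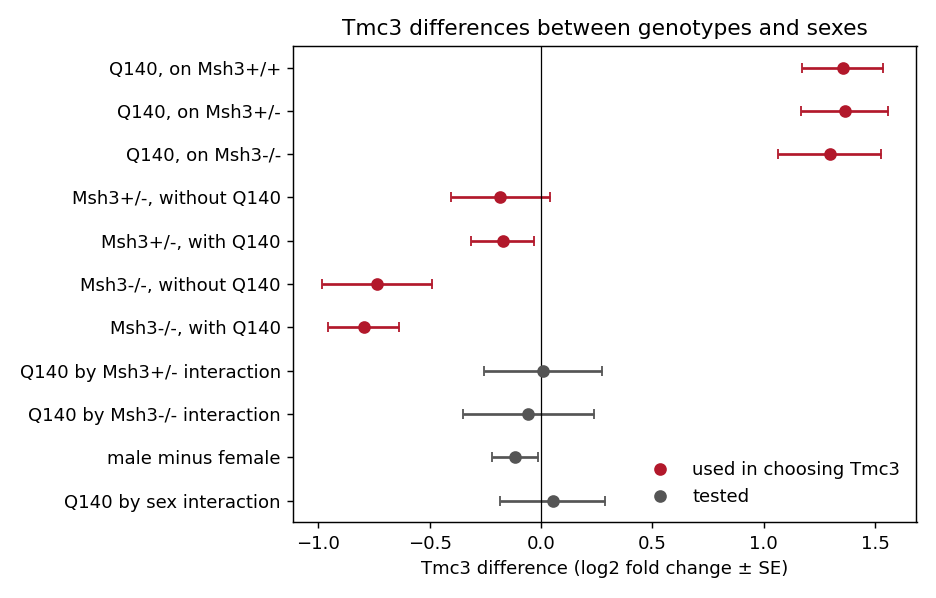
Tmc3 differences as log2 fold changes (horizontal axis) with their SE, from the model fitted to all 48 libraries. Red points are comparisons described without a test, and grey points are those tested. The key calls all red points used in choosing Tmc3, but the choice used the Q140 and Msh3-/- differences, not those of Msh3+/-. The 3 Q140 points lie at 1.36, 1.36 and 1.30, the Msh3-/- points at -0.74 and -0.80, and the Msh3+/- points at -0.18 and -0.17. The 4 grey points shown all lie within 0.12 of zero.

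The spread between mice was not the same in all groups. The coefficient of variation of Tmc3 CPM was 32.2% in wild type, where counting alone would give 19.6%, and 41.9% in Msh3+/- against 21.1%. It was 40.7% against 25.1% in Msh3-/-, and 28.1% against 16.0% in Q140 Msh3-/-. In Q140 it was 14.1% against 12.1%, and in Q140 Msh3+/- 7.97%, below the 13.2% of counting error. Groups with higher Tmc3 thus had the smaller relative spread, with Q140 Msh3-/- in between.

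No sex difference in Tmc3 was detectable. In Q140 mice, females had 1.44 ± 0.130 CPM and males 1.27 ± 0.218 (SD, n = 4 each). In wild type the values were 0.542 ± 0.188 and 0.482 ± 0.160 CPM. In Q140 Msh3-/- they were 0.839 ± 0.146 and 0.704 ± 0.275 CPM, and the highest and the lowest mouse of that group were both male. The female mean was the higher in 5 of the 6 genotypes, all but Q140 Msh3+/- (1.18 ± 0.106 and 1.22 ± 0.0925 CPM). The male minus female difference over all genotypes was -0.12 ± 0.105 (log2, SE), with a 95% interval from -0.32 to 0.09 (edgeR, unadjusted p = 0.269, adjusted p = 0.621). The sex comparison called 837 of 19547 genes (4.28%), Tmc3 not among them.

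No difference between the sexes in the size of the genotype differences was detectable. The Q140 by sex interaction was 0.05 ± 0.236 (log2, SE), with a 95% interval from -0.41 to 0.51 (edgeR, unadjusted p = 0.824, adjusted p = 1). The Msh3-/- by sex interaction was 0.03 ± 0.274, with an interval from -0.50 to 0.57 (edgeR, unadjusted p = 0.902, adjusted p = 0.988). Neither interaction called a gene in edgeR (0% of 19547), DESeq2 or limma-voom, with 499 and 1316 genes at an unadjusted p under 0.05 in edgeR.

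The labels give each library a well address, and genotypes were unevenly spread over the 6 plate columns: column 1 held 7 mice with Q140 and 1 without. Within every column the mean Tmc3 level was higher with Q140. In column 2 (4 mice with and 4 without Q140) the means were 1.15 and 0.452 CPM, a log2 ratio of 1.35. Columns 5 and 6, also 4 and 4, gave 1.13 against 0.473 CPM and 1.11 against 0.487 CPM, log2 ratios of 1.25 and 1.18. The least even columns gave 2.16 (column 1), 1.60 (column 3, 2 and 6 mice) and 0.96 (column 4, 3 and 5 mice). These ratios pool Msh3 genotypes, which were not matched within columns. The only mouse without Q140 in column 1 was Msh3-/- female 3 (0.260 CPM), and no Q140 mouse in column 4 was Msh3+/+. Tmc3 was chosen for being higher with Q140, so the direction within columns is a description only. With plate column as a further term in the model, the averaged Q140 difference was 1.34 ± 0.131 and the Msh3-/- difference -0.79 ± 0.160.

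**Figure D3:**
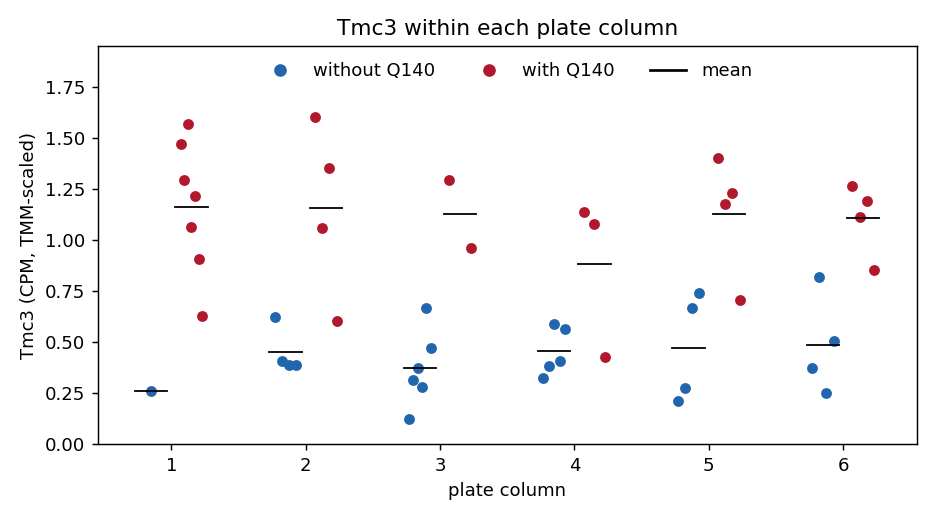
Tmc3 level in CPM (vertical axis) by plate column of the library's well address (horizontal axis), with Q140 mice in red and mice without Q140 in blue; black lines are means. In each of the 6 columns the red mean lies above the blue mean, and column 4 has the smallest gap (0.881 against 0.454 CPM). Msh3 genotypes are pooled within each column and are not matched.

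Library names also share prefixes whose meaning is not given in the sources used here. Of 27 prefixes, 8 held mice both with and without Q140. The mean Tmc3 level was higher with Q140 in 8 of these 8, and every mouse with Q140 was above every mouse without it in 7. Most of these prefixes held 1 mouse with Q140, and Msh3 genotypes were not matched within them. Tmc3 was chosen for being higher with Q140, so this tally is a description and carries no weight of its own. The exception was a prefix with 1 Q140 Msh3-/- mouse at 0.603 CPM and 2 mice without Q140 that averaged 0.595 CPM.

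Some genes that mark cell types were called with Q140, where 1.47% of all genes were called, 149 of them lower and 139 higher. In bulk tissue, fewer cells of a type and less RNA per cell cannot be told apart. Of 6 astrocyte markers, 3 were called lower with Q140, and their summed level ran from 4315 to 5141 CPM with Q140 and from 4644 to 5921 CPM without. Of 5 upper-layer neuron markers 3 were called lower with Q140, with sums of 788 to 1037 CPM against 783 to 1088 CPM. Of 5 oligodendrocyte precursor markers 1 was called higher with Q140 (sums of 136 to 168 CPM against 134 to 158 CPM). Likewise 1 of 6 striatal markers was called higher (143 to 185 CPM against 141 to 182 CPM). The median log2 difference with Q140 was -0.0016 over the 5 precursor markers, which include Enpp6, a gene of newly forming oligodendrocytes, at 0.64 ± 0.072 (SE). The median was 0.05 for striatal, -0.06 for astrocyte and -0.11 for upper-layer markers. No marker of these 4 lists was at 0 in any library. Of 3 tested pituitary markers 1 was called lower with Q140, with sums over 4 markers of 0.379 to 3.70 CPM with Q140 and of 0.273 to 45.4 CPM without, and 3 of the 4 were at 0 in at least 1 library. With Msh3-/-, 1 of 5 upper-layer markers was called lower, where 0.215% of all genes were called. The sums were 783 to 959 CPM against 874 to 1088 CPM in Msh3+/+. The median log2 difference of these 5 markers with Msh3-/- was 0.03, so the lower sum does not describe the list as a whole. The part of any of these cell type markers in the Tmc3 differences was not tested.

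An antisense gene overlaps Tmc3. Gm16638 (ENSMUSG00000087088, minus strand, chromosome 7, 83597048 to 83631880) covers 28567 bases of the Tmc3 gene body, and its exons share 3961 of the 9027 exonic bases of Tmc3. The library kit keeps strand, but the strand setting of the counting is not given in the sources used here, so the counts of these genes may not be cleanly separated. Gm16638 was the more abundant by far, at 335 to 816 counts per library.

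Neither genotype difference of Gm16638 passed the test. It had 9.62 ± 1.49 CPM in wild type, 9.18 ± 0.971 in Msh3+/- and 10.2 ± 1.16 in Msh3-/- (SD, n = 8 each). With Q140 it had 8.41 ± 1.40, 9.24 ± 1.29 and 9.28 ± 1.39 CPM in the same order of Msh3 genotypes. All groups overlapped. Its averaged Q140 difference was -0.11 ± 0.054 (log2, SE; edgeR adjusted p = 0.328), and its Msh3-/- difference was 0.11 ± 0.066 (adjusted p = 0.423), each opposite in sign to that of Tmc3.

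None of the other TMC family genes passed the test in either averaged comparison, and none of them did with DESeq2 or limma-voom. Of 7 other members 5 had enough counts to be tested, with a median log2 difference of -0.04 for Q140 and 0.01 for Msh3-/-, and no member had an unadjusted p under 0.05. Over all genes the shares called were 1.47% for Q140 and 0.215% for Msh3-/-, and the shares at an unadjusted p under 0.05 were 15.1% and 14.9%. At those shares, a count of 0 in lists this short is near the background and says little about the family. Tmc7, the most abundant of them in cortex with a median of 3.52 FPKM, differed by -0.00 ± 0.033 with Q140. Tmc4 (1.08 FPKM) differed by -0.09 ± 0.078 and Tmc6 (0.833 FPKM), whose human counterpart with that of Tmc8 is linked to susceptibility to papillomavirus, by -0.04 ± 0.068. Tmc1, a pore gene of the hair cell channel, was at 0.261 FPKM and differed by -0.05 ± 0.141, and Tmc8 at 0.193 FPKM differed by -0.02 ± 0.136. With Msh3-/- the values ran from -0.11 ± 0.171 for Tmc1 to 0.24 ± 0.168 for Tmc8. The other pore gene, Tmc2, had 0 to 3 counts per library and Tmc5 0 to 17, and neither was tested.

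**Figure D4:**
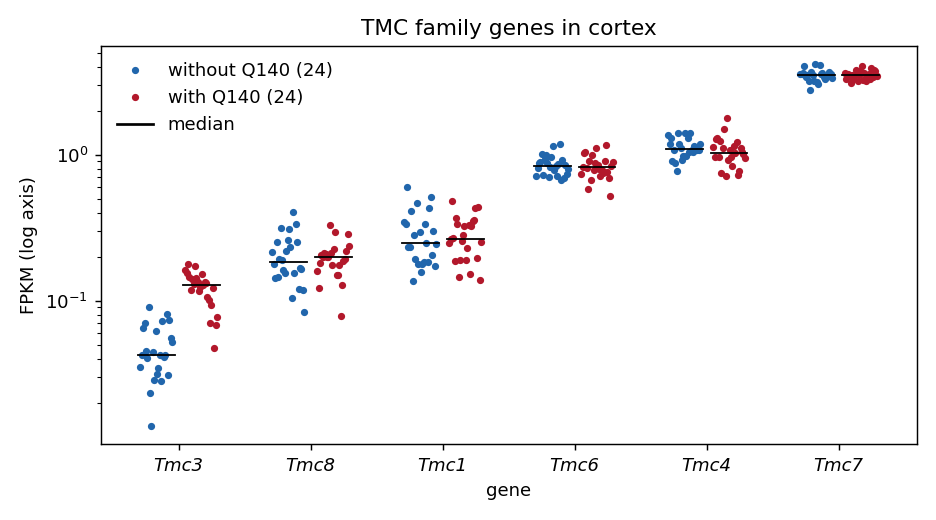
Deposited FPKM (vertical log axis) of Tmc3 and the 5 other TMC genes tested (horizontal axis, ordered by median), with 24 mice without Q140 in blue and 24 with Q140 in red; black lines are medians. Tmc3 is the scarcest of the 6 and its red points sit mostly above the blue, whereas the clouds of the other genes overlap.

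The genes that work with TMC proteins in hair cells were also tested. Of 13 partners and transduction genes 11 were tested and 0 were called in either averaged comparison by edgeR, DESeq2 or limma-voom, with 2 at an unadjusted p under 0.05 in edgeR for each. Against 1.47% and 0.215% of all genes called, and 15.1% and 14.9% at that unadjusted p, these counts are near the background. Their median log2 difference was 0.05 with Q140 and 0.07 with Msh3-/-, against -0.00084 and 0.0048 over all genes. With Q140 8 of the 11 were above 0 and 3 below, and with Msh3-/- 10 were above and 1 below. This lean was not tested. The most abundant were Cib2 (11.8 FPKM; Q140 difference 0.09 ± 0.038), which binds TMC proteins, and Whrn (8.65 FPKM; -0.01 ± 0.040), a scaffold protein of stereocilia. Next came the motor protein gene Myo7a (3.75 FPKM; 0.04 ± 0.031) and Cib1 (2.82 FPKM; -0.00 ± 0.045). Lhfpl5, which links tip-link protein and channel, had the smallest adjusted p with Q140 (0.30 ± 0.089, edgeR adjusted p = 0.0723). Myo7a had the smallest with Msh3-/- (0.11 ± 0.038, edgeR adjusted p = 0.158). Both were singled out after their values had been seen.

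Channels of other families that open to membrane tension were tested as well. Of 8 genes 8 were tested and 0 were called in either comparison by edgeR, DESeq2 or limma-voom. At an unadjusted p under 0.05 edgeR had 0 for Q140 and 1 for Msh3-/-. Over all genes 1.47% and 0.215% were called and 15.1% and 14.9% were at that unadjusted p. At those shares, 0 called of 8 is again near the background. The most abundant, Tmem63b (32.2 FPKM), differed by -0.01 ± 0.016 with Q140, Tmem63c (15.5 FPKM) by 0.01 ± 0.021, and the potassium channel genes Kcnk4 (14.3 FPKM) and Kcnk2 (10.5 FPKM) by -0.01 ± 0.027 and -0.02 ± 0.038.

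No gene beside Tmc3 on chromosome 7 passed the test in edgeR. Of 54 other genes with a gene body within 1 Mb, 24 were tested. In edgeR 0 of 24 were called with Q140 (7 at an unadjusted p under 0.05) and 0 with Msh3-/- (3 at that level). Over all genes 1.47% and 0.215% were called and 15.1% and 14.9% were at that unadjusted p. At those called shares, 0 of 24 is near the background for both and says little about the region. The 7 of 24 at an unadjusted p under 0.05 with Q140 were a larger share than the 15.1% of all genes. The 3 of 24 with Msh3-/- were not a larger share than 14.9%, and neither share was tested. Their log2 differences ran from -0.30 to 0.09 with Q140 (median -0.01) and from -0.51 to 0.49 with Msh3-/- (median 0.02). DESeq2 called 1 of them with Q140, Gm2115, with a log2 difference of -0.13 ± 0.039 (adjusted p = 0.042), opposite in sign to Tmc3, and none with Msh3-/-; limma-voom called none.

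The closest neighbours lie on both sides of Tmc3. Downstream, Stard5, a lipid transfer protein gene that starts 6.34 kb beyond Tmc3, differed by -0.01 ± 0.053 with Q140 and by 0.02 ± 0.064 with Msh3-/-. Gm45838 differed by -0.14 ± 0.095 and -0.18 ± 0.117, and the cytokine gene Il16 by 0.06 ± 0.080 and 0.07 ± 0.097. Upstream, Gm44724 (-0.23 ± 0.230 with Q140), A530021J07Rik (0.04 ± 0.177) and Mex3b (0.02 ± 0.052), which codes for an RNA-binding protein, were the nearest tested genes, with Msh3-/- differences of 0.33 ± 0.276, 0.08 ± 0.214 and 0.16 ± 0.063.

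**Figure D5:**
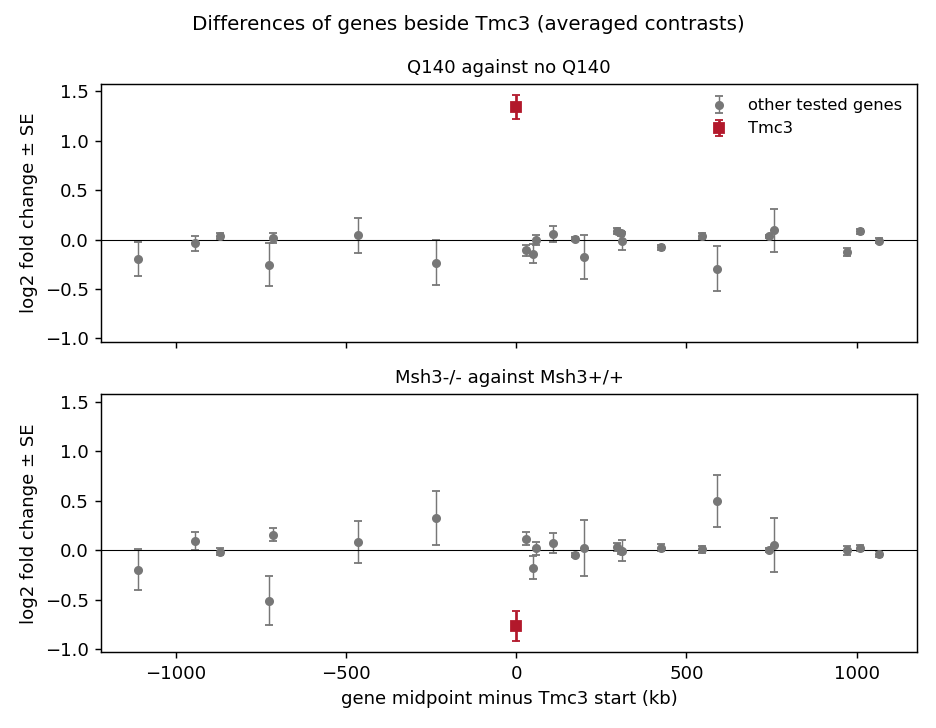
Averaged log2 fold changes ± SE (vertical axes) of Tmc3 (red) and of the 24 other tested genes whose bodies lie within 1 Mb of it (grey), against the distance of the gene midpoint from the Tmc3 start in kb (horizontal axis). The upper panel shows Q140 and the lower Msh3-/-; Tmc3 stands at 1.34 and -0.77, and the grey points lie between -0.30 and 0.09 above and between -0.51 and 0.49 below.

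The genes whose log2 CPM followed Tmc3 most closely over the 48 libraries, among 14121 genes with a mean count of at least 20, were Abhd1 (Pearson r = 0.74), Enpp6 (0.69), Mrpl33 (0.67), Anln (0.64) and Zfp488 (0.64). Those that ran most opposite were Camk2n1 (-0.72), Atraid (-0.68), Arpp21 (-0.63), Gsg1l (-0.60) and Camk2a (-0.59). These values describe libraries that share genotype differences, so genes that differ with Q140 rank high by construction. Ranking by Spearman's correlation shared 4 of the 5 highest and 3 of the 5 lowest genes.

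The genotype differences of these genes stand here beside those of Tmc3. Abhd1, which codes for an alpha/beta hydrolase domain protein, differed by 1.17 ± 0.057 (log2, SE) with Q140 and by 0.07 ± 0.069 with Msh3-/-, where Tmc3 had 1.34 and -0.77. Abhd1, Mrpl33 and Atraid lie on chromosome 5, 3.81, 3.16 and 3.71 Mb from Htt, the gene that carries the knock-in. Enpp6, a gene of newly forming oligodendrocytes, differed by 0.64 ± 0.072 with Q140 and by -0.22 ± 0.088 with Msh3-/-. Anln, which codes for an actin-binding protein, and Zfp488, a transcription factor gene of the oligodendrocyte lineage, had 0.35 ± 0.056 and 0.27 ± 0.054 with Q140 and -0.19 ± 0.068 and -0.21 ± 0.067 with Msh3-/-. Camk2n1, an inhibitor of calcium/calmodulin-dependent kinase II, differed by -0.21 ± 0.023 and 0.07 ± 0.028.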

How the data were processed

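RNA from cerebral cortex of 48 mice was sequenced from libraries made with a strand-keeping TruSeq kit, per the labels' protocols. The authors deposited whole-number counts per Ensembl gene and FPKM values, which divide those counts by gene length and library total. STAR 2.7.5c, SAMtools 1.10 and HTSeq 0.12.3 are named in the submitters' processing notes with the builds GRCm38 and mm10; the annotation release and strand setting are not given in the sources used here. The extraction protocol names another brain region and a younger age, whereas all other labels give cortex at 12 months, which was used.

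Groups and sex came from the labels. Genes with low counts were removed (filterByExpr by group, at least 10 counts and 15 in total), and the rest were scaled by TMM and fitted with edgeR 4.0.16 (quasi-likelihood, robust; 6 groups plus sex; R 4.3.3), adjusted by Benjamini-Hochberg over 19547 genes; tests are two-sided, and standard errors come from the fit's coefficient covariance. The fit was tested on simulated data. DESeq2 1.42.0, limma 3.58.1 (voom, and library-name prefix as a random block), other scaling, no filter, no sex term, plate column, replicate block and left-out libraries were alternatives. Coordinates are those of GENCODE M21, which held 99.1% of the gene IDs. Each of the 168 within-group library pairs differed by more than counting noise (lowest mean chi-square per gene 7.38). Tmc3 and all lists were chosen with earlier results of these data known. Genes were named by rule: all tested TMC genes; called list members or else the 4 of highest FPKM; called neighbours or else the nearest 3 on each side; and the 5 highest and 5 lowest correlations with Tmc3 (log2 CPM, prior count 2), also after group means and sex were removed.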

Additional observations from a re-analysis of the deposited data

How the results depend on the processing

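The Tmc3 differences with Q140 and Msh3 genotype kept their direction in every alternative run, from 1.32 to 1.41 (log2) for Q140 averaged and from -0.81 to -0.73 for Msh3-/-, and from 1.30 to 1.39 and -0.84 to -0.70 with 1 library left out. The interactions, near 0, changed sign: Q140 by Msh3+/- was -0.0154 with DESeq2 and -0.126 without the 3 libraries with raised choroid plexus or pituitary markers; Q140 by sex was -0.0416 with plate column; Msh3-/- by sex was -0.0028 with DESeq2, -0.0166 with plate column and -0.0511 without the 2 extreme Q140 Msh3-/- males. With 1 library left out they ran from -0.104 to 0.156 (Msh3+/-), -0.182 to 0.0796 (Msh3-/-), -0.0299 to 0.158 (Q140 by sex) and -0.159 to 0.138 (Msh3-/- by sex); their adjusted p stayed at 0.939 or above throughout. DESeq2 called 1 gene near Tmc3 with Q140. Windows of 0.5 and 2 Mb called 0 of 13 and 0 of 35. Genes called with Q140 numbered 288, but 463 with DESeq2 and 102 with plate column. With Msh3-/- they numbered 42, but 135 with DESeq2 and 91 with the replicate block. The Msh3-/- by sex interaction called 1 gene without a filter, with plate column or without the 3 libraries. The causes were not tested. Same-numbered mice of different groups did not deviate together (median r -0.02 over 120 pairs), so numbers do not pair mice; with the replicate block, Tmc3 differed by 1.34 with Q140 and -0.76 with Msh3-/-. Counts of 6 to 90 per library limit the precision of all Tmc3 values.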

Other observations

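After group means and the sex difference were removed, Tmc3 varied between mice of the same genotype with a residual SD of 0.417 log2 CPM. The genes that followed these residuals most closely over the 48 libraries were Wbscr16 (Pearson r = 0.61), Hjurp (0.61), Fam234b (0.59), Tmem25 (0.57) and Laptm4b (0.57), and those that ran most opposite were Dchs2 (-0.57), Sgk3 (-0.56), Smarca1 (-0.56), Cflar (-0.56) and Cdh11 (-0.55). None of these 10 genes is among those that followed Tmc3 with the genotype differences left in. Their averaged Q140 differences lay between -0.04 and 0.05 on the log2 scale, and their Msh3-/- differences between -0.15 and 0.06. Spearman's correlation shared 2 of the 5 highest and 2 of the 5 lowest. These correlations carry the counting error of a scarce transcript and are a description only.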
